A study of Mus musculus with 384 samples.

Results

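Mitosis genes are described here in single cells of the mouse mammary gland: 44 genes of the 49585 in the table, chosen by name for the work of their proteins from mitotic entry to cell division. All 44 were matched to 1 gene identifier each, and all 44 had reads in embryonic cells. Mitosis is the part of the cell cycle in which duplicated chromosomes are condensed, attached to a spindle and divided between daughter cells. Transcripts of its genes build up from late S phase to mitosis, held low before that by repressor complexes at their promoters and raised later by the transcription factors B-MYB and FOXM1. Most of the proteins are destroyed as mitosis ends, so the transcripts are widely used as signs of dividing cells, and in the mammary gland they are known from growing tissue such as embryonic buds, pubertal end buds and early pregnancy.

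The data were read counts per gene from single cells sorted into a 384-well plate and sequenced with Smart-seq2, a protocol that copies whole polyadenylated transcripts. The embryonic gate held cells from female skin with mammary buds at embryonic day 14, labelled high for CD49f (an integrin of basal epithelium) and high for Lgr5 (a Wnt pathway receptor, read through the GFP of the Lgr5-EGFP-IRES-CreER allele). The adult gates came from mammary glands of Rosa-tdTomato mice, basal cells as CD24+ CD29Hi and luminal cells as CD24+ CD29Lo. In every gate cells with CD45, CD31 or CD140a (immune, endothelial and stromal proteins) and dead cells were gated out. The age of the adults and the number of animals behind a gate are not in the labels, so each gate counts as 1 sample, no test between gates was possible, and intervals cover counting error only. The reporter and the gate also limit the embryonic cells to those with high Lgr5, which need not stand for the whole bud. Each gate had 1 further well of 50 cells.

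Single-cell wells with at least 50000 reads on genes were used, which left out 10 embryonic, 10 basal and 9 luminal wells. The median well had 697578 gene reads in the embryonic gate, 450196 in the basal gate and 525176 in the luminal gate, and no 2 wells shared a barcode pair. The 4 wells without a cell had 34 to 563 gene reads and 0 reads of mitosis genes. Labelled cell types were checked against marker lists. The median embryonic cell had 6 of 8 bud markers, the median basal cell 6 of 8 basal markers, and the median luminal cell 6 of 12 luminal markers. The bud markers include Lgr5, on which the embryonic gate was set. Of the fibroblast or mesenchyme markers, 3 or more of 8 were detected in 22 embryonic, 8 basal and 0 luminal cells. Of the endothelial markers, 2 or more of 8 were detected in 1, 9 and 1 cells. Against the wells of 50 cells, all cells but 1 embryonic, 10 basal and 3 luminal ones were most like their own gate by Spearman correlation over 10315 genes. Of these exceptions, 2 basal wells (A3 and A16) and 1 luminal well (F22) held many of the adult mitosis reads. Summed adult levels, gate comparisons and some single members are therefore also given without them.

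Mitosis genes were far higher in embryonic cells than in either adult gate. Their summed level was 3378 CPM (reads per 1000000 gene reads, from reads summed over the cells of a gate) in embryonic cells, 557 CPM in basal cells and 186 CPM in luminal cells. Against basal cells, 39 of the 44 were at least 2-fold higher on the log2(CPM + 1) scale and 0 were at least 2-fold lower, where 33.8% of the 12808 genes measured were 2-fold higher and 19.4% lower. Their median log2 ratio was 3.46, beside 0.38 over all genes. At least 8-fold higher were 27 of 44, against a background of 9.17%. Against luminal cells, 44 of 44 were at least 2-fold higher, where 39.3% of 12679 genes were. That median was 4.63, beside 0.58 over all genes, and 37 of 44 were at least 8-fold higher, against 11.8%. In each comparison 3 members had 0 adult reads, so that their log2 ratios depend on the prior. Median-of-ratios scaling, which moves the median of all genes to -0.01 and 0.02, left 38 and 43 members 2-fold higher. Under it 25.7% of all genes were higher and 25.3% lower against basal cells, and 28.2% and 25.3% against luminal cells. In such sums, fewer cells with a transcript and less of it per cell cannot be told apart, which the single wells below address.

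**Figure D1:**
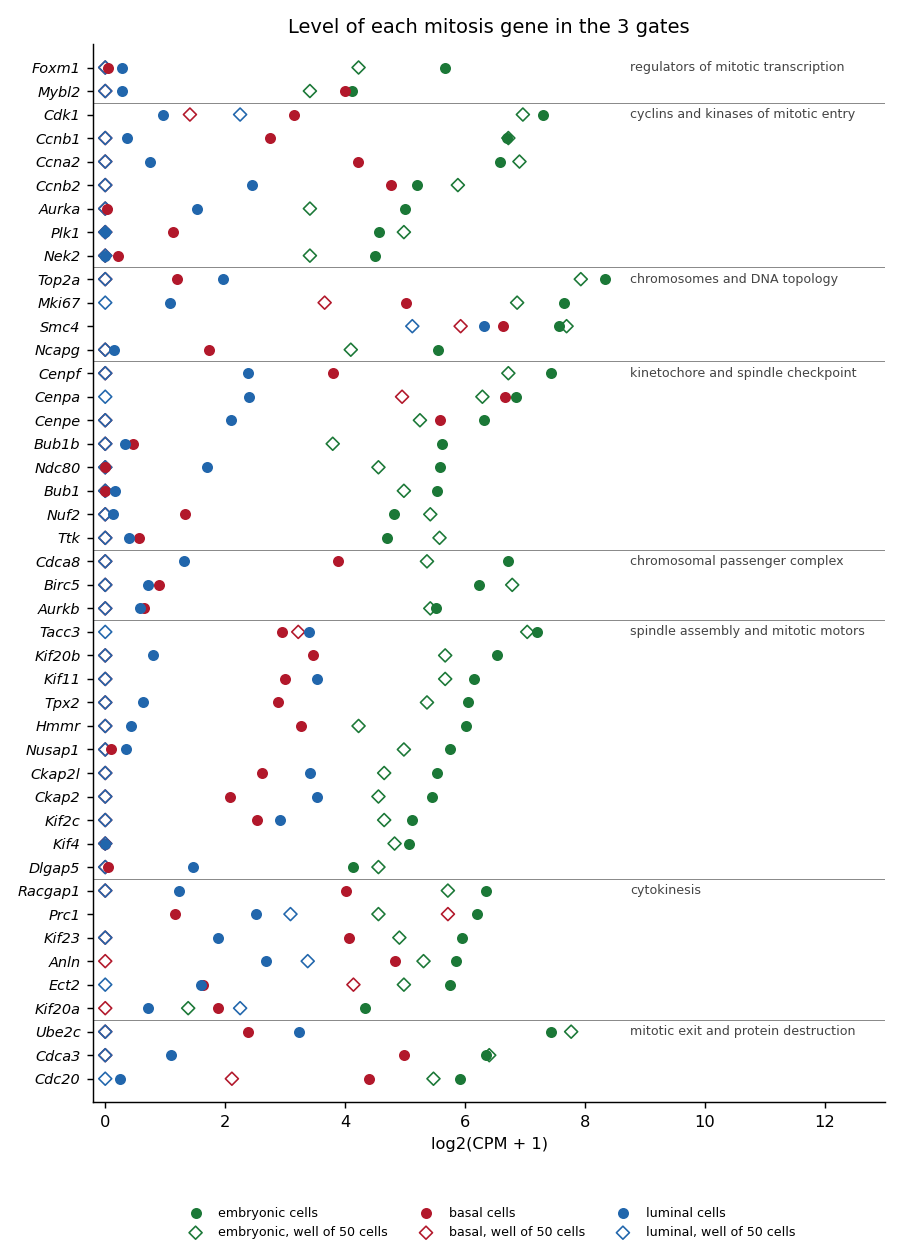
Level of each of the 44 mitosis genes as log2(CPM + 1), grouped by role, in the summed single cells of each gate (filled circles) and in the well of 50 cells of each gate (open diamonds). Embryonic circles lie to the right of the adult circles throughout, with basal circles close to them for Mybl2, Ccnb2, Cenpa, Cenpe and Smc4.

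The promoters of the members carry letters that regulators of mitotic transcription are known to read. The CHR element (TTTGAA, or TTTAAA in some genes) is bound by the MuvB core that serves both the repressing DREAM complex and the activating complexes with B-MYB and FOXM1, and the CCAAT box is bound by NF-Y. RefSeq promoter windows (GRCm38.p6, 250 bases before to 50 after the start) were found for 37 of the 44 members, in 39 windows. Counting both strands, TTTGAA stood in 76.9% of them (30 of 39), against 17.9% of all 32851 windows of this length. CCAAT also stood in 76.9%, against 37.4%, and both motifs together in 66.7%, against 6.95%. TTTGAA or TTTAAA was present in 84.6%, against 27.6%. The E2F letters TTTCCCGC and TTTGGCGC, known from S phase genes, were in 2.56% and in 0 of 39 windows, against 1.07% and 0.514% of all windows. The windows of 25 S phase genes held TTTGAA in 14.3%, CCAAT in 57.1%, TTTCCCGC in 10.7% and TTTGGCGC in 17.9%, and those of further mitosis genes held them in 51.4%, 72.97%, 2.703% and 10.8%. In the member windows 76.9% of the TTTGAA matches lay within 50 bases of the start, against 25.8% of the matches in all windows, and the centres of the CCAAT matches had a median position of -65.5, against -90 in all windows, where negative positions lie before the start. In 2 member windows a pair of matches shared a base. A match of letters is a description and does not show binding.

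The 8 stretches below show this layout in genes that the results turn on: the kinase and cyclins of mitotic entry, the chromosome and kinetochore genes with the highest levels, the genes of mitotic exit, and Mybl2 as a member whose stretch holds none of these letters. Each runs 5′ to 3′ on the gene's strand from 120 bases before to 30 after the RefSeq start, in GRCm38.p6, and capitals mark the CHR and CCAAT letters on either strand, so that a CCAAT box of the other strand reads ATTGG.
Cdk1 promoter (chr10:69352883-69353032, minus strand): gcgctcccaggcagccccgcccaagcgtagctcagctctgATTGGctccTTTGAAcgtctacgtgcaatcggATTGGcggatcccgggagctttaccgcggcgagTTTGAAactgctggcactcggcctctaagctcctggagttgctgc
Ccnb1 promoter (chr13:100786457-100786606, minus strand): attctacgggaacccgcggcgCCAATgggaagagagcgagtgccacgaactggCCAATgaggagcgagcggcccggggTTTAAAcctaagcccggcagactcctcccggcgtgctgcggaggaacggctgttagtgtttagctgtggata
Ccnb2 promoter (chr9:70421525-70421674, minus strand): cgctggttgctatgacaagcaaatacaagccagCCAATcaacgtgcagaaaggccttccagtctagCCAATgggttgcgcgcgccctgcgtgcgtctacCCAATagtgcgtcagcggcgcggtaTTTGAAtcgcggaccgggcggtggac
Top2a promoter (chr11:99024160-99024309, minus strand): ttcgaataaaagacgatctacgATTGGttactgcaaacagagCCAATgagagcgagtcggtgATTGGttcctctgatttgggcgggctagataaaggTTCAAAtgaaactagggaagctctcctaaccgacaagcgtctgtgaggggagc
Cenpf promoter (chr1:189688057-189688206, minus strand): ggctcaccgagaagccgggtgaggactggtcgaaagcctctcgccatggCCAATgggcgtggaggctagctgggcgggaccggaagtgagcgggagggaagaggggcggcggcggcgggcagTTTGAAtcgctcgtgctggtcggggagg
Cdc20 promoter (chr4:118437314-118437463, minus strand): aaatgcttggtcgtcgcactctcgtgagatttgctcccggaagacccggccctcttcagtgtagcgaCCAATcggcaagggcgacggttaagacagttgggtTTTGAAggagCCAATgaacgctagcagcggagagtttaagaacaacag
Ube2c promoter (chr2:164769809-164769958, plus strand): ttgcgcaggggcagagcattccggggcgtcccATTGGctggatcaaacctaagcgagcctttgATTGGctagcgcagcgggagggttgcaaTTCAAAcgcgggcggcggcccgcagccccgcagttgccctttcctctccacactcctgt
Mybl2 promoter (chr2:163054515-163054664, plus strand): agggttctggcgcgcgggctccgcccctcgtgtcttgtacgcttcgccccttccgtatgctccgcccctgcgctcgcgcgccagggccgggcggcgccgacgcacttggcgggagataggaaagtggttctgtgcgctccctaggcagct
The Cdk1 stretch had 2 matches of TTTGAA and 2 of CCAAT. Those of Ccnb2 and Top2a had 1 TTTGAA and 3 CCAAT each, those of Cdc20 and Ube2c 1 and 2, and that of Cenpf 1 and 1. The Ccnb1 stretch had TTTAAA in place of TTTGAA, with 2 CCAAT.

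Cdk1 (chromosome 10, 69335146 to 69352938 in GRCm38), the kinase that drives entry into mitosis, ranged from 0 to 1341 CPM over embryonic cells with a median of 1.09 CPM, and its summed level was 156 CPM. It was 7.86 CPM in basal cells, where the highest cell had 666 CPM and the median was 0, and 0.951 CPM in luminal cells (highest 335 CPM). That is 19.9-fold over basal (95% counting interval 18.03 to 21.9) and 164-fold over luminal cells (128.7 to 213). The highest adult wells were A16, with 95.3% of the basal Cdk1 reads, and F22, with 84.6% of the luminal ones. The lowest cell was at 0 for every member in every gate, and the median cell was at 0 except for Cdk1, Top2a and Smc4 in embryonic cells and Smc4 in luminal cells.

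The cyclins that Cdk1 pairs with differed in how far the adult gates lay below. Ccnb1, the main cyclin of mitotic entry, was at 103.1 CPM in embryonic cells (cells from 0 to 1762), 5.72 CPM in basal and 0.293 CPM in luminal cells, 18.03-fold and 352-fold apart. Ccna2, the cyclin of S phase and G2, stood at 94.7, 17.6 and 0.673 CPM. Wells A3 and A16 held 98.96% of the basal Ccna2 reads, and the other basal cells stood at 0.190 CPM. Ccnb2, a second B-type cyclin tied to the Golgi apparatus, was under 2-fold: 35.7 CPM in embryonic and 26.3 CPM in basal cells, 1.36-fold (1.28 to 1.45), with 4.46 CPM in luminal cells. Of its basal reads 96.2% came from wells A3 and A16. Over the other basal cells Ccnb2 was at 1.05 CPM.

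The other kinases of entry were low in abundance and had few reads in adult cells. Aurka, which matures centrosomes, had 30.9 CPM in embryonic cells (cells from 0 to 844), 1 read in all basal cells and 1.87 CPM in luminal cells. Its 16.5-fold difference from luminal cells (13.8 to 19.8) was smaller than that of Cdk1. Plk1, the Polo kinase of entry and spindle formation, had 22.7 CPM (cells from 0 to 376) against 1.19 CPM in basal cells, 19.1-fold (14.9 to 24.8), and 0 luminal reads, at least 517-fold with 3 reads allowed. Nek2, a centrosome kinase, had 21.6 CPM (0 to 1766 over cells), 9 basal reads and 0 luminal reads, at least 491-fold. In the wells of 50 cells Aurka, Plk1 and Nek2 had 6, 19 and 6 embryonic reads and 0 in both adult wells.

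Of the regulators of mitotic transcription, Foxm1 and Mybl2 (B-MYB) differed in the basal gate. Foxm1 was at 49.5 CPM in embryonic cells (cells from 0 to 631), with 2 reads in all basal cells (0.0367 CPM, 1349-fold with an interval of 373 to 11143) and 15 in luminal cells (0.219 CPM, 225-fold, 136.5 to 403). Mybl2 (chromosome 2, 163054687 to 163084688) had the lowest embryonic level of all members, 16.3 CPM (cells from 0 to 326), and basal cells stood at 15.0 CPM, 1.09-fold (0.996 to 1.18). Its basal reads came from outside A3 and A16, as did those of Ttk and Foxm1: 4 basal wells had any, the top one (D1) held 47.2% of them, and A3 and A16 held none. Luminal cells had 0.219 CPM, and the basal well of 50 cells had 0 reads beside 6 in the embryonic one.

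The member with the highest summed level was Top2a (chromosome 11, 98992943 to 99024189), the topoisomerase that untangles sister chromosomes, at 320 CPM (cells from 0 to 2366, median 9.51). It was at 1.28 CPM in basal cells (highest cell 99.4) and 2.91 CPM in luminal cells (highest cell 858), so that basal cells were 250-fold (198 to 320) and luminal cells 110-fold (95.7 to 127.2) below. It was detected (at least 5 reads after thinning to 50000, as described below) in 33.9% of embryonic cells, with any read in 80 of them. It was detected in 0 basal cells, which allows a share of up to 2.78%, with any read in 7, and in 2 luminal cells. Mki67, which coats mitotic chromosomes and encodes the proliferation marker Ki-67, was at 199 CPM in embryonic (0 to 1635), 31.5 CPM in basal (0 to 699) and 1.11 CPM in luminal cells (0 to 402). The basal level was 6.33-fold below the embryonic one (6.02 to 6.65), with 4 basal cells in which Mki67 was detected, 3 of them outside A3 and A16. Ncapg, a condensin subunit, had 45.9, 2.33 and 0.102 CPM, and all basal reads lay in A16 (100%).

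Smc4 (chromosome 3, 69004738 to 69034623), the core ATPase shared by both condensins, was the exception among chromosome genes. It was at 188 CPM in embryonic cells (0 to 1421, median 13.2), 98.6 CPM in basal cells (0 to 1498, median 0) and 78.8 CPM in luminal cells (0 to 1903, median 1.59), so the 3 ranges overlapped widely. The difference was 1.91-fold from basal (1.85 to 1.97) and 2.38-fold from luminal cells (2.31 to 2.46). Smc4 was detected in 38.6% of embryonic, 16.7% of basal and 21.4% of luminal cells. Wells A3 and A16 held only 8.11% of its basal reads and F22 2.04% of its luminal reads, and in the wells of 50 cells it stood at 206, 59.8 and 33.8 CPM.

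Kinetochore and checkpoint genes were between 25.0 and 173 CPM in embryonic cells. Cenpf, a large kinetochore protein, was at 173 CPM (cells from 0 to 3194), 12.8 CPM in basal and 4.18 CPM in luminal cells, 13.5-fold and 41.3-fold lower there. Cenpa, the histone that marks the centromere, was 114.5 CPM (0 to 2369) and 100.998 CPM in basal cells (0 to 2731), 1.134-fold (1.097 to 1.17), with 4.27 CPM in luminal cells. Cenpe, the kinetochore motor, was 78.9 CPM (0 to 1207) and 46.7 CPM in basal cells (0 to 1340), 1.69-fold (1.62 to 1.77), with 3.26 CPM in luminal cells. The highest basal cell was above the highest embryonic cell for Cenpa and Cenpe, in both cases well A3, which alone held 64.8% and 68.8% of the basal reads.

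The checkpoint kinase Bub1 had 45.2 CPM and Ndc80, which holds microtubules at the kinetochore, 47.1 CPM in embryonic cells, both with 0 basal reads. Embryonic cells were thus at least 823-fold and at least 856-fold higher, allowing 3 basal reads. Bub1b, Nuf2 and Ttk, further checkpoint and kinetochore genes, had 47.9, 27.1 and 25.0 CPM in embryonic cells, and between 0.0878 and 1.52 CPM in the adult gates.

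The chromosomal passenger complex corrects faulty attachments and then guides cell division. Its kinase Aurkb was at 44.8 CPM (cells from 0 to 688), with 31 basal and 34 luminal reads, of which A16 held 96.8% and F22 100%. Birc5 (survivin) was at 73.8 CPM, 0.862 CPM and 0.644 CPM. Cdca8 (borealin) was at 103.8 CPM (0 to 820.5), 13.7 CPM in basal and 1.48 CPM in luminal cells, 7.59-fold (7.05 to 8.19) and 70.3-fold (57.8 to 86.4). The A16 well, at 1198 CPM, exceeded every embryonic cell for Cdca8 and held 98.5% of the basal reads.

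Of the 11 genes of spindle assembly and mitotic motors, 11 were at least 2-fold higher than in each adult gate. Tacc3, which stabilises spindle fibres, was at 146 CPM (cells from 0 to 1582), 6.67 CPM in basal and 9.598 CPM in luminal cells, 21.8-fold and 15.2-fold lower. The motor Kif11, which pushes spindle poles apart, had 70.1, 6.95 and 10.5 CPM, and the spindle proteins Ckap2 and Ckap2l 42.8, 3.23 and 10.6 CPM and 45.3, 5.15 and 9.61 CPM. In luminal cells these levels came from single wells: H2 held 75.7% of the Kif11 reads, G9 97.6% of those of Ckap2 and G8 83.1% of those of Ckap2l. Each of these 3 wells had 1 member detected. Dlgap5, a spindle assembly protein, was low at 16.5 CPM (0 to 649), with 2 basal reads and 1.77 CPM in luminal cells. Kif4, a chromosome motor, had 32.4 CPM in embryonic cells and 0 reads in both adult gates, at least 589-fold and at least 739-fold.

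Genes of cytokinesis ranged from 19.2 to 80.9 CPM in embryonic cells. Kif20a, a motor of the central spindle, had the lowest level, 19.2 CPM (cells from 0 to 296), with 2.68 CPM in basal and 0.644 CPM in luminal cells. In the wells of 50 cells it had only 1 embryonic, 0 basal and 2 luminal reads. Prc1, which bundles the central spindle, was at 72.2, 1.23 and 4.70 CPM in single cells, yet in the wells of 50 cells it was higher in the basal well (51.5 CPM, 31 reads) than in the embryonic one (22.5 CPM, 14 reads). Anln, the actin-binding anillin, was the member closest to the 2-fold line, at 56.4 and 27.6 CPM in embryonic and basal cells, 2.05-fold (1.93 to 2.17). Wells A3 and A16 held 99.8% of its basal reads, and the other basal cells stood at 0.057 CPM.

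Genes of mitotic exit act in the destruction of cyclins and other mitotic proteins. Ube2c, the ubiquitin-conjugating enzyme of the anaphase-promoting complex, had the highest level per length of all members, 66.2 CPM per kb of exon. Its summed level was 172 CPM (cells from 0 to 2816), against 4.23 CPM in basal and 8.38 CPM in luminal cells, 40.7-fold (35.7 to 46.5) and 20.5-fold (18.9 to 22.4). Cdc20, which activates that complex, had 59.2, 20.02 and 0.190 CPM, and A16 held 84.5% of the basal reads. Cdca3, an adaptor for protein destruction at mitotic entry, had 80.8 CPM (0 to 763), 30.7 CPM and 1.14 CPM, 2.63-fold and 70.8-fold. Well A3 held 99.3% of its basal reads at 1271 CPM, above every embryonic cell. Reads of some of these genes may include those of a neighbour, since exons of Ube2c, Cdc20, Tacc3, Ccna2, Cdca8, Plk1, Prc1 and 6 further members overlap a gene on the opposite strand and those of Top2a and Foxm1 a gene on the same strand. Per kb, Ube2c was followed in embryonic cells by Tacc3 (40.99 CPM per kb), Smc4 (36.1), Top2a (35.6), Cdc20 (31.7) and Cdk1 (31.6), with Dlgap5 lowest (2.42).

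In single wells, mitosis genes were concentrated in a minority of embryonic cells. A gene was called detected with at least 5 reads after a cell was thinned to 50000 gene reads, the depth of 100 CPM. Of the embryonic cells, 32 had 0 members detected, 49 had 1 to 4, 12 had 5 to 9, 14 had 10 to 19 and 20 had 20 or more, with a median of 2 and a maximum of 32. Thus 34 cells had 10 or more and the other 93 fewer, a share of 26.8% (exact 95% interval 19.3 to 35.4). The line at 10 is a choice within a range, with 5 cells between 8 and 11. Without thinning, the median embryonic cell had a read of 7 members.

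The 34 cells held 86.4% of all embryonic member reads, and the 10 cells with the most held 47.2%, beside 14.8% of the gene reads. Since the line was drawn on the members themselves, their split is given only as a description. Smc4 was detected in 34 of the 34 cells and in 15 of the other 93, Top2a in 32 and 11, Mki67 in 32 and 10, and Cdk1 in 27 and 3. Plk1 and Tpx2, an activator of Aurora A, were detected in 9 and 20 of the 34 and in 0 of the other 93. The share of a member's reads inside the 34 cells had a median of 89.4%, from 56.3% for Prc1 and 59.7% for Aurka to 99.3% for Plk1.

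Depth moved with this split to some degree, while marker levels differed less. Cells with 10 or more members had a median of 938291 gene reads and 6443.5 genes with a read, the others 660523 and 5278. Of the fibroblast or mesenchyme markers, 3 or more of 8 were detected in 5 of the 34 and 17 of the 93 cells, and their median summed level was 199 and 247 CPM. Bud markers stood at a median of 3782 and 4074 CPM. Of the 8 immune markers only Ptprc, Cd52 and Cd3e were at 0 in every embryonic cell. Summed over the 8, the median embryonic cell had 0 CPM and the highest 406 CPM. The part of these measures in the split was not tested.

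**Figure D2:**
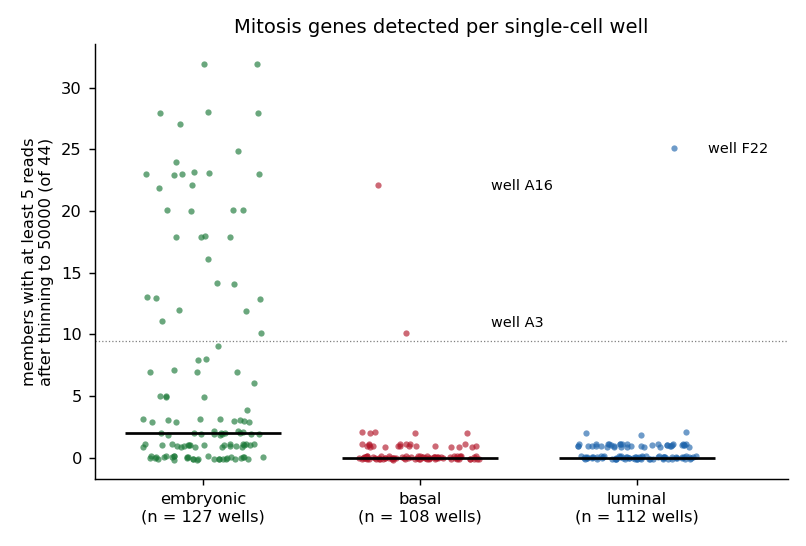
Number of the 44 mitosis genes detected in each single-cell well (points, with small random shifts), by gate, with the median as a bar and a dotted line between 9 and 10. Embryonic cells reach 32, while adult cells have at most 2 apart from wells A3 (10), A16 (22) and F22 (25).

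The members went up and down together over the embryonic cells. For the 41 members at 20 CPM or more, the median Pearson correlation of log2(CPM + 1) over 820 pairs was 0.54, beside 0.06 over all pairs of the 8018 genes at that level. With further mitosis genes the median was 0.46, and with S phase genes 0.26. With genes of the anaphase-promoting complex and with CDK inhibitors and DREAM genes it was 0.15 each. These values are descriptions, since all pairs share the cells and their depth. The mean level of the members had a correlation of 0.29 with the log of gene reads, 0.48 with the genes with a read and 0.60 with the mean S phase level.

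Cdk1 followed the mean of the other members most closely (0.87), then Cenpf (0.83) and Tpx2 (0.82). Mybl2 followed it least (0.33), after Kif20a (0.42), Nek2 and Dlgap5 (0.47 each). These were also the members with the lowest embryonic levels (16.3 to 21.6 CPM), each detected in 5 to 7 embryonic cells. The part of sparse detection in their correlations was not tested. Members also differed in how they ran with the mean of the S phase genes. Ccna2 (0.62), Smc4 and Cdk1 (0.61 each) had the highest correlation with it, and Aurka (0.19), Cenpa (0.22) and Dlgap5 (0.23) the lowest. Mybl2 was nearer to the S phase genes (0.50) than to the other members. Outside the 44, the 10 genes with the most similar pattern over these cells were Knl1 (0.84), Kif15, Spc25, Cit, Aspm, Pbk, Pclaf, Iqgap3, Melk and Shcbp1 (0.74).

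**Figure D3:**
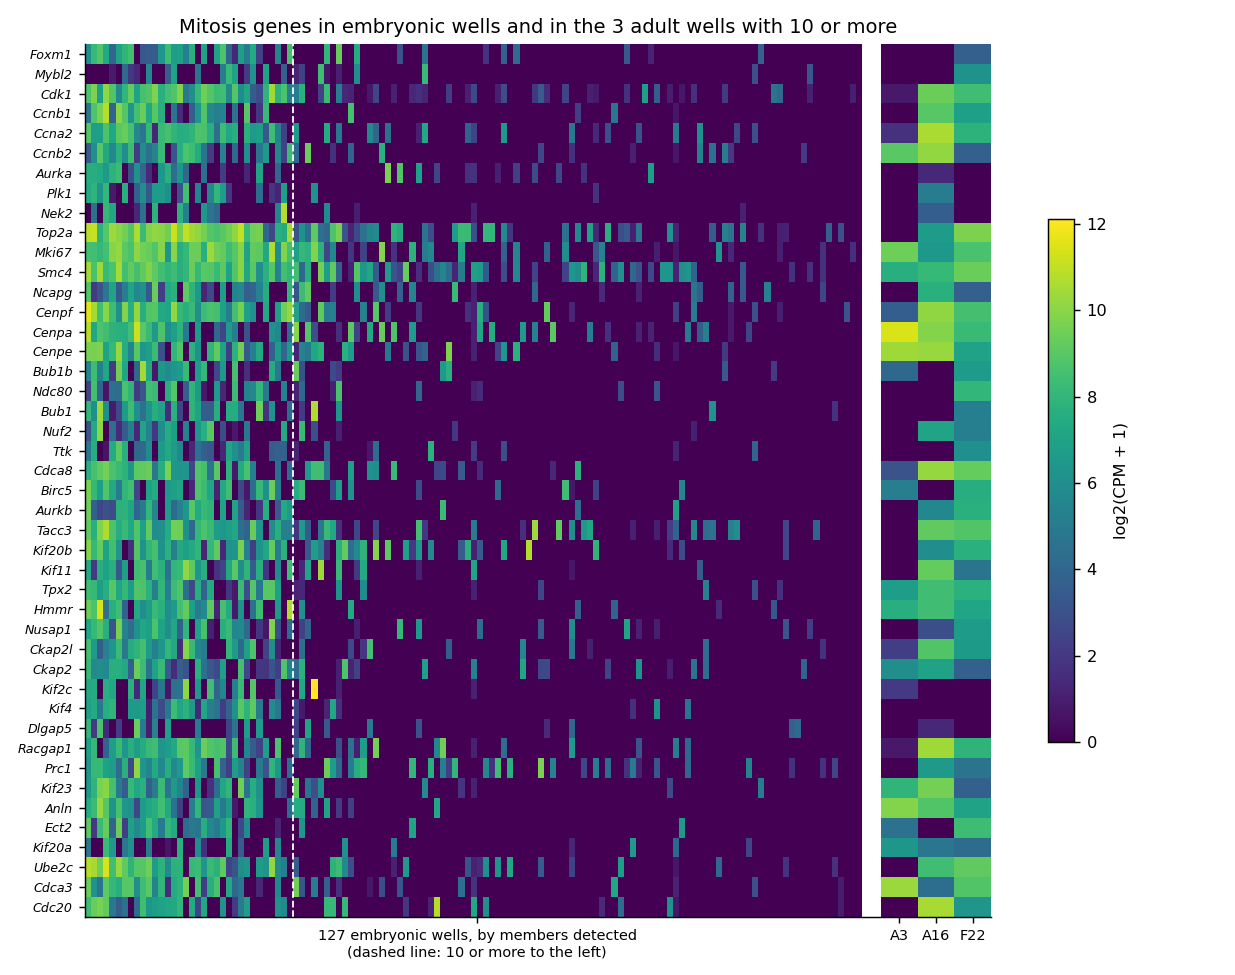
Level of each member, log2(CPM + 1), in the embryonic wells ordered by the number of members detected (the 34 with 10 or more lie left of the dashed line) and in adult wells A3, A16 and F22, drawn wider. High levels fill the left columns for most rows, Top2a and Smc4 reach furthest to the right, and A3 has a few high rows among rows at 0.

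S phase and mitosis genes overlapped in part of the embryonic cells. S phase genes, which copy DNA earlier in the cycle, are given from a list of 30. Of the 34 cells with 10 or more members, 30 had 5 or more S phase genes detected and 4 had fewer. Of the 81 cells with 0 to 4 members, 21 had 5 or more S phase genes and 60 had fewer. The 2 cells with 32 members, at the top of the plot of S phase against mitosis genes, had 6 and 2 S phase genes.

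**Figure D4:**
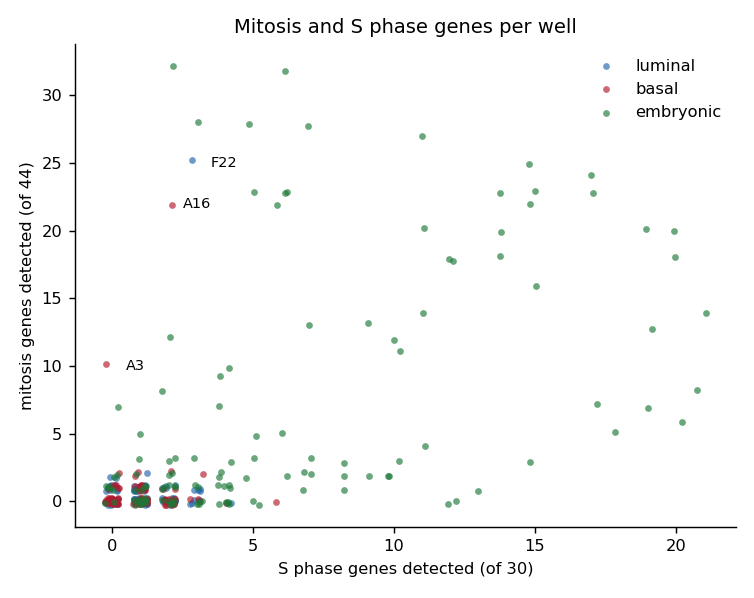
Number of S phase genes detected (of 30, x axis) and of mitosis genes detected (of 44, y axis) in each well, by gate, with small random shifts. Embryonic wells spread along both axes, adult wells crowd near the origin, and wells A3, A16 and F22 lie high with at most 3 S phase genes.

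Adult cells with many mitosis genes detected were rare, while 25% of basal and 37.5% of luminal cells had at least 1. Of the basal cells 81 had 0 members detected, 25 had 1 or 2, and wells A3 and A16 had 10 and 22. Of the luminal cells 70 had 0, 41 had 1 or 2, and well F22 had 25. Among the 25 basal and 41 luminal cells with 1 or 2, Smc4 was detected in 16 and 23, and another member in 12 and 21. Wells with 10 or more were thus 1.85% of basal (0.225 to 6.53) and 0.893% of luminal cells (0.0226 to 4.87), beside 26.8% of embryonic cells. Of the basal member reads, 69.4% came from A3 and A16, which had 3.52% of the gene reads, and of the luminal ones 10.5% came from F22, which had 0.240%. Of the 41 members with any basal read, 24 had over 90% of them in A3 and A16. In basal cells 20 of the 44 were detected in these wells and in no other basal cell, 9 were detected in other basal cells, and 15 in no basal cell. Without these wells the summed level was 176 CPM in basal and 167 CPM in luminal cells, of which all but 82.5 and 89.5 CPM was Smc4. The basal well B16 had a read of 21 members but only 1 detected.

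**Figure D5:**
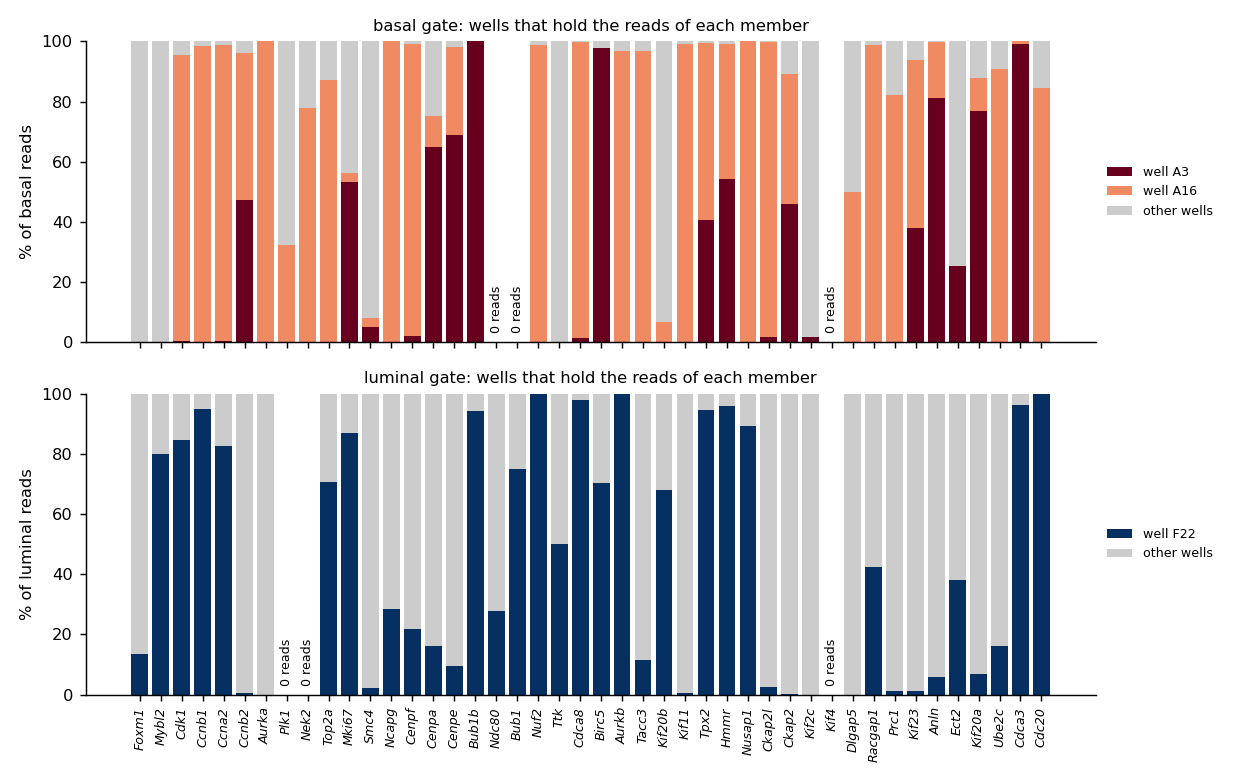
Share of each member's reads in the basal gate (top) held by wells A3 and A16 and in the luminal gate (bottom) held by well F22, in percent, with all other wells in grey. Reads of 24 members lie over 90% in A3 and A16, whereas those of Smc4, Mybl2, Kif20b, Kif2c, Plk1, Ect2, Ttk and Foxm1 come mostly from other basal wells. A bar can rest on few reads, such as 1 for Aurka and 2 for Dlgap5 in basal cells.

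The 3 wells differed in which members they held and in their markers. A3 had all 8 basal markers detected (43447 CPM summed, Acta2, the smooth muscle actin of myoepithelium, at 32585 CPM) and no bud marker detected (3.06 CPM). Its members were Cenpa (2731 CPM), Cenpe (1340), Cdca3 (1271), Anln (935), Mki67 (699), Ccnb2 (516), Kif23 (247), Smc4 (201), Hmmr (195) and Ckap2 (61.97). Top2a and Ccnb1 had 0 reads there, Cdk1 had 1, 22 of 44 members had none, and no S phase gene was detected. Its correlation with the embryonic well of 50 cells, 0.39, was close to that with the basal one, 0.38.

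A16 had 7 of 8 basal markers (Acta2 14542 CPM) and also 4 of 8 bud markers, among them Lgr5 (133.6 CPM), Sox11 (411 CPM) and H19 (181 CPM), and was more like the embryonic (0.54) than the basal well (0.39). Its highest members were Ccna2 (1541 CPM), Cdc20 (1504), Racgap1 (1331), Cenpe (1212), Cdca8 (1198) and Ccnb2 (1145), with 2 S phase genes detected. F22, labelled luminal, had 8 of 8 bud markers (4179 CPM summed, Sox11 at 1716, Pthlh at 639 and Lgr5 at 402 CPM). Of the luminal markers 6 of 12 were detected, as in the median luminal cell, but they summed to 1740 CPM, against a gate median of 22325 CPM, with Csn3, Elf5, Esr1, Foxa1 and Kit at 0, and it was more like the embryonic (0.54) than the luminal well (0.40). Its label and its bud markers thus went against each other, and how the markers of both kinds came to be in A16 and F22 was not tested. Its highest members were Top2a (858 CPM), Smc4 (669), Cdca8 (602) and Ube2c (566), with 3 S phase genes detected. Markers of other types were also present. F22 had 2 of 8 basal markers detected, Krt14 (1040 CPM) and Krt5 (189). Its basal markers summed to 1247 CPM, where the gate median was 0.927 CPM in luminal and 1131 CPM in embryonic cells. Of the fibroblast markers A3 had Dcn (3027 CPM) and Postn (674), A16 Postn (595) and F22 Col1a2 (292). Of the luminal markers A3 had Krt8 (321), Krt19 (258) and Pgr (154), and A16 Krt8 (738), Krt18 (601) and Krt19 (306), and A3 had Sox10 (159), a marker of Schwann cells and melanocytes. Immune and endothelial markers were detected in none of the 3 wells.

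The order of basal and luminal cells depended on which members and wells were counted. Of 25 members with 5 CPM or more in at least 1 of these gates, 18 were at least 2-fold higher in basal and 1 in luminal cells (Ckap2), where 28.3% of 11885 genes were higher and 21.3% lower, and the median log2 ratio was 2.32, beside 0.14 over all genes. At least 8-fold higher in basal cells were 7 of 25, where 8.4% of all genes were. But 17 of the 25 reached 5 CPM through basal cells alone, and these gave 17 of the 18, so neither the count nor the median stands for the 44. Without a minimum level the median over all 44 was 0.73, with 22 higher and 5 lower in basal cells. Of all genes 8.67% were then higher and 7.2% lower, with a median of 0. Without A3, A16 and F22, an alternative chosen after the data were seen, 12 were measured, 4 were higher and 6 lower in basal cells, where 28.3% of all genes were higher and 21.5% lower, and the median was -1.45, beside 0.13 over all genes. The 4 of 12 are near that share. They were Mki67, Cenpa, Kif20b and Mybl2, which reached 5 CPM through basal cells alone. The 6 lower ones (Ube2c, Kif11, Anln, Ckap2, Ckap2l and Tacc3) reached it through luminal cells alone. Neither these counts nor this median thus stand for the 44. In the wells of 50 cells 7 members were measured, and 5 were higher in the basal well. There 40.8% of all genes were higher and 27.01% lower, and the members' median was 3.22, beside 0.48. Of the 5, Mki67, Cenpa, Ect2 and Tacc3 had 0 luminal reads and reached 5 CPM through the basal well alone. The minimum level and the prior thus set much of this count and median. Against embryonic cells, leaving out A3, A16 and F22 raised the basal comparison from 39 to 42 members at least 2-fold higher, with a median of 5.52, and left 44 of 44 for luminal cells. Of all genes 34.2% and 39.3% were then at least 2-fold higher, with medians of 0.39 and 0.58. Ccnb2, Cenpe and Cenpa were then above the 2-fold line, with log2 ratios of 4.17, 5.37 and 2.11, while Smc4 (0.99) and Mybl2 (0.06) were not. Without A16 and F22 alone, 41 members were higher than in basal cells, where 33.9% of all genes were. Of 16 members measured, 9 were then higher and 5 lower in basal than in luminal cells. Of all genes 28.2% were higher and 21.5% lower there.

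The wells of 50 cells, single libraries with 532820 to 621792 gene reads, also had higher levels in the embryonic gate. Of 43 members measured, the embryonic well exceeded the basal one at least 2-fold for 41 and was lower for Prc1, and it exceeded the luminal one for 43 of 43. Of all genes 37.6% and 44.1% were at least 2-fold higher there, with medians of 0.21 and 0.66. The members' median log2 ratio was 4.98 in both, but 35 of the 43 had 0 reads in the basal and 39 in the luminal well, so that it is set by the prior. With 3 adult reads in place of 0, and the prior left out for those members alone, the medians were 2.89 and 2.72. Then 38 and 40 members were at least 2-fold higher. Plate position moved with the gates: all basal cells but 1 were in rows A to F and all embryonic ones but 8 in rows G to P. In rows A to F alone, with 8 embryonic cells, 42 members were at least 2-fold higher than in basal cells, where 32.5% of all genes were. Mybl2 was lower (log2 ratio -1.10). Against luminal cells 44 members were higher, where 40.8% of all genes were. The 8 cells stood at 7981 CPM, against 2891 CPM in the others. Wells A13 (17535 CPM) and F3 (21343 CPM) carried that level, and the other 6 stood at 2771 CPM, an omission chosen after the data were seen. The part of plate position in the levels was not tested.

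Further genes of the cycle are given from lists of their own. Of 39 further mitosis genes measured, 37 were at least 2-fold higher than in basal and 38 than in luminal cells, with medians of 3.62 and 3.97. Of all genes 33.8% and 39.3% were. Stmn1, a microtubule regulator, was highest at 494 CPM, against 51.9 and 5.43 CPM, and Smc2, the condensin partner of Smc4, had 336 CPM against 10.0 and 13.5 CPM. Of 29 S phase genes, 24 and 27 were higher, with medians of 4.04 and 3.69. Rrm2, the regulated subunit of ribonucleotide reductase, had 214 CPM against 0.202 and 1.96 CPM, while Pcna, the sliding clamp of DNA polymerase, had 249 CPM against 55.9 CPM in basal and 170 CPM in luminal cells.

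The genes of the anaphase-promoting complex, with which Ube2c and Cdc20 act, differed less. Their list holds subunits and also the partner genes Fzr1 and Ube2s. Of 16, 6 were at least 2-fold higher than in basal and 11 than in luminal cells, where 33.8% and 39.3% of all genes were. The 6 of 16 are near that share. Their medians were 0.53 and 1.37, close to that of all genes in the first case. Of the CDK inhibitors and DREAM complex genes, 6 of 16 were higher and 2 lower than in basal cells, and 6 of 17 higher and 3 lower than in luminal cells. These counts are near the shares of all genes, of which 19.4% and 17.6% were lower. The list medians were 0.37 and 0.73, beside 0.38 and 0.58 over all genes. The inhibitors went both ways: Cdkn1c (p57) stood at 530 CPM in embryonic cells against 19.98 and 2.24 CPM, and Cdkn1a (p21) at 58.4 CPM against 165 and 797 CPM.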

How the data were processed

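The authors deposited read counts, 1 table with a column for each of 384 wells, in which 92 spike-ins were left out of gene totals here. Per the labels' protocols, the Smart-seq2 method was modified, with an oligo-dT primer, 24 cycles of amplification and Nextera XT libraries. The submitters' processing notes name cutadapt 1.13, STAR 2.5.2b, HTSeq 0.6.0 and GRCm38. Which tool did what, with which options, annotation and strand setting, is not given in the sources used here. Exons of 15 of the 44 members overlap those of another gene, 13 of them on the other strand, so their reads cannot be told apart if strand was not used.

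Identifiers were matched to GENCODE M21, 5577 of them without the version, and 259 were not matched. Wells with at least 50000 gene reads were used and no doublet caller was run. Reads were summed over the cells of a gate and scaled to CPM. A prior of 1 CPM was added before log2 ratios were taken, over genes at 5 CPM or more in 1 of the gates. Folds of single genes leave the prior out and carry exact conditional 95% intervals, with 3 reads standing in for 0. Shares have exact Clopper-Pearson intervals. Reads had no molecular identifiers and one molecule can give many, so every interval covers counting error only. Each gate was 1 sample and no test was made. Computation used Python 3.11.15 with scipy 1.17.1 and R 4.3.3 with edgeR 4.0.16 for scaling, and the fold calculation was tested on simulated data.

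The 44 members, gene lists and markers were chosen with earlier results of these data known. Values are described for the top 10 and bottom 5 members by embryonic level, every member under 2-fold, the 5 highest of each adult gate and 10 genes always named, together 24, with further members where a group or count turned on them. Similar genes were the 10 best correlated at 20 CPM or more, and of each other list up to 4 of the highest genes were considered. The alternatives were other levels, scalings, priors, cell filters, the wells of 50 cells, and wells left out.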

Additional observations from a re-analysis of the deposited data

Results flagged for a closer look

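A single well was left out of every comparison because its name and its sort entry belong to different gates. It had 164 reads of mitosis genes among 774060 gene reads (212 CPM), where the wells without a cell had 0. The reads lay in Prc1 (88), Top2a (43), Smc4 (29) and Ckap2l (4), and 2 members were detected. No explanation was tested.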

How the results depend on the processing

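The direction of the members' median held against both adult gates under every alternative run, with 38 to 43 members at least 2-fold higher than in basal cells and 43 to 44 than in luminal cells. Of all genes 12.1% to 37.6% and 13.3% to 44.1% were. The cause of the shifts was not tested unless wells were left out. Against basal cells the median log2 ratio of 3.46 became 3.69 with the mean of per-cell CPM, 3.17 with TMM and 3.13 with median-of-ratios scaling, 2.54 with a prior of 5 CPM, 4.98 in the wells of 50 cells (set by the prior, as most members had 0 adult reads), 3.78 without the adult cell with the most member reads in each gate and 5.52 without cells that match another gate. Alternatives chosen after the data were seen gave 5.52 without wells A3, A16 and F22, 4.89 without A16 and F22, 3.68 without fibroblast-marked embryonic wells and 4.22 in rows A to F. Against luminal cells the median of 4.63 became, in the same order of settings, 4.04, 4.37, 4.34, 3.31, 4.98, 4.73 and 4.75, and 3.99 with thinned cells. The ones chosen after the data were seen gave 4.73, 4.73, 4.85 and 4.83, and 4.82 in rows G to P. For basal over luminal cells the median of 2.32 became 1.36 with per-cell means, 1.32 thinned, 0.73 without a minimum level, 1.40 with a prior of 5 CPM, 3.22 in the wells of 50 cells, 1.85 without the top cells, 1.27 without A16 and F22 and 1.28 in rows A to F. It reversed to -2.72 without cells that match another gate and to -1.45 without A3, A16 and F22. In each of these 2 settings 12 members were measured, and 7 in the wells of 50 cells, so these medians do not stand for the 44. The count of 18 members higher in basal cells became 5 in the wells of 50 cells, 4 and 4 in those 2 settings and 9 without A16 and F22. The shares of all genes were 40.8%, 29.7%, 28.3% and 28.2% in the same order.

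Reversals were counted only for the 24 members named by rule, of which 18 values reversed. In the wells of 50 cells these were Kif20a for embryonic over luminal (-0.87) and, for basal over luminal, Cdk1 (-0.84) and Kif20a (-2.25). Without cells that match another gate, and without A3, A16 and F22, basal over luminal turned to -2.34 and -1.41 for Ccnb2, -0.96 and -1.04 for Cenpe, -1.96 and -1.97 for Cenpf, -0.21 and -0.25 for Kif20a, -0.063 and -0.062 for Cdca3, and -0.011 and -0.015 for Cdca8, and Cenpf was -1.64 without A16 and F22. In rows A to F Ckap2 turned to 0.76 and Dlgap5 to 0.053. Members outside the 24 also turned in the wells of 50 cells. Prc1 went from 5.04 to -1.16 for embryonic over basal and from -1.35 to 2.63 for basal over luminal. Anln went from 2.16 to -3.38 for basal over luminal. Without A3, A16 and F22, members outside the 24 that turned to lower in basal cells included Anln, Kif23, Racgap1 and Ncapg. Their basal and luminal levels were then 0.057 and 5.10, 1.03 and 2.67, 0.190 and 0.777, and 0 and 0.0733 CPM. The median number of members per embryonic cell rose from 2 to 4 with 1 read as detection and to 4 with 10 CPM and 2 reads, and per luminal cell from 0 to 1 and 1. At 50000 reads only levels near 100 CPM are detected, so a member not detected need not be absent. TMM scaling moved the median of all genes from 0.38 to 0.04 against basal and from 0.58 to 0.07 against luminal cells. No paired analysis was possible because each gate is 1 sample and the wells carry no replicate numbers that pair them.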
